A study of Neurospora crassa with 10 samples.

Results

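The transcripts of 8 circadian clock genes of the filamentous fungus *Neurospora crassa* were followed from the dark into the light. The genes are *frq* (NCU02265) and *frh* (NCU03363), which encode the FREQUENCY protein (FRQ) and its partner, and 6 genes whose products act on FRQ or on the length of the clock period. These are *fwd-1* (NCU04540), *ck-1a* (NCU00685), *prd-4* (NCU02814), *prd-1* (NCU07839), *ppp-1* (NCU00043), and *rgb-1* (NCU09377). They were chosen by locus for their place in the clock. All 8 loci were found among the 9728 genes measured, and all 8 were among the 7688 expressed genes, those with a mean above 1 FPKM at 1 or more time points. FPKM is the number of fragments relative to the length of the transcript and to the size of the library. RefSeq gives 6 of the 8 symbols. It lists NCU07839 under its locus only and NCU00043 as *pph-3*, with *ppp-1* as a synonym.

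Mycelium of the wild-type strain FGSC2489 was grown in shaken liquid culture without light for 24 hr. It was then given white light (1200 lux) for 15, 60, 120, or 240 min, or harvested in the dark at time 0. RNA-seq of polyadenylated RNA was analyzed in 2 independent cultures for each of the 5 time points, 10 samples in all. All samples came from this 1 strain, and no clock mutant was measured. Because the dark cultures were taken at time 0, time in light and time in culture cannot be told apart.

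The *Neurospora* clock is a negative feedback loop. The White Collar complex (WCC), formed by the photoreceptor and transcription factor WC-1 with WC-2, activates *frq*, and FRQ with FRH then inhibits the WCC, in part by bringing casein kinases to it. FRQ is phosphorylated step by step, loses its inhibitory activity, and is degraded after it binds FWD-1, while phosphatases counter the kinases. Light acts on the same complex, so that *frq* is also a light-induced gene, and this is known as the route by which light sets the clock. A natural antisense transcript, *qrf*, is made from the *frq* locus and is light-induced too. The library method used does not mark strand, so the values given for *frq* may contain reads from *qrf*.

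The replicates were alike at 4 time points and not at the fifth. R2 of log10(FPKM + 1) between replicates was 0.955, 0.966, and 0.958 at 15, 60, and 120 min, 0.744 at 240 min, and 0.954 in the dark. At least 2-fold differences between replicates were found for 3451 expressed genes at 240 min and for between 415 and 610 at the other time points. The 240 min sample of replicate 2 stood apart from the other light samples. Of the heat shock gene list (3 genes), the sum there was 58.9 FPKM, against 3522 FPKM in the 240 min sample of replicate 1, and the 6 conidiation genes summed to 112 FPKM, against 571 FPKM. Within these lists the genes differed. NCU07232 was at 30.9 FPKM in replicate 2 and 2199 FPKM in replicate 1 at 240 min, NCU09420 at 8.54 and 1316 FPKM, *con-8* at 16.6 and 378 FPKM, and *con-6* at 10.2 and 98.3 FPKM. In the opposite direction, *hsp30* was at 19.4 and 6.31 FPKM and *con-10* at 15.2 and 4.26 FPKM. In light for 60 min the conidiation genes summed to 4419 and 5073 FPKM, against 122 and 97.5 FPKM in the dark, and *con-13* was below 1 FPKM in all 10 samples and listed at 0 in replicate 2 at 240 min and in the dark. The part of conidiation and heat shock in the clock gene results was not tested. The poly(A) fraction of replicate 1 was taken on oligo-dT cellulose and that of replicate 2 on magnetic beads, and the study sequenced replicate 1 more deeply, the 240 min sample of replicate 2 least of all. Method, depth, and replicate number cannot be told apart. All 8 clock genes were higher in replicate 1 than in replicate 2 at 15, 60, and 120 min and in the dark, as 55.5% of the expressed genes were.

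limma was run on log2(FPKM + 1) of all expressed genes, and a gene was called at an adjusted p of 0.2 or less. The study used a q of 0.2 with a different test, Cuffdiff on its combined replicates. In the study *frq* passed that test and *frh* did not, so the calls given here are not those of the study. Without a term for the replicate, limma called 0 of the 8 clock genes at 15 min against the dark, where it called 1.78% of all expressed genes. It called 0 of 8 at 60 min (6.23% of all), 0 of 8 at 120 min (4.96%), and 0 of 8 at 240 min (1.38%). At an unadjusted p under 0.05 there were 1 at 15 min (*frq*), 2 at 60 min (*frh* and *prd-1*), and 0 at 120 and 240 min. With the replicate number as a block, which sets each light sample against the dark of its own replicate, limma called 1 of 8 at 15 min (15.2% of all), 6 of 8 at 60 min (36.5%), 3 of 8 at 120 min (31.2%), and 3 of 8 at 240 min (20.1%). Each fit takes 1 spread per gene from all its time points, so a p at 240 min does not measure the wider replicate difference there. Whether the clock genes were called more often than other genes was not tested. Leaving out either 240 min library from the fit with no block gave 1, 5, and 2 calls at 15, 60, and 120 min, where 16.9%, 36.2%, and 33.3% of all genes were called without replicate 1 and 15.6%, 34.5%, and 31.8% without replicate 2. At 240 min there were 3 calls without 240 min replicate 1 (36.3% of all) and 1 without 240 min replicate 2 (25.6%). In these fits the 1 sample left at 240 min is assumed to vary like the samples of the other time points. Leaving out both libraries also gave 1, 5, and 2 calls, with 15.9%, 34.8%, and 32.2% of all genes called.

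**Figure D1:**
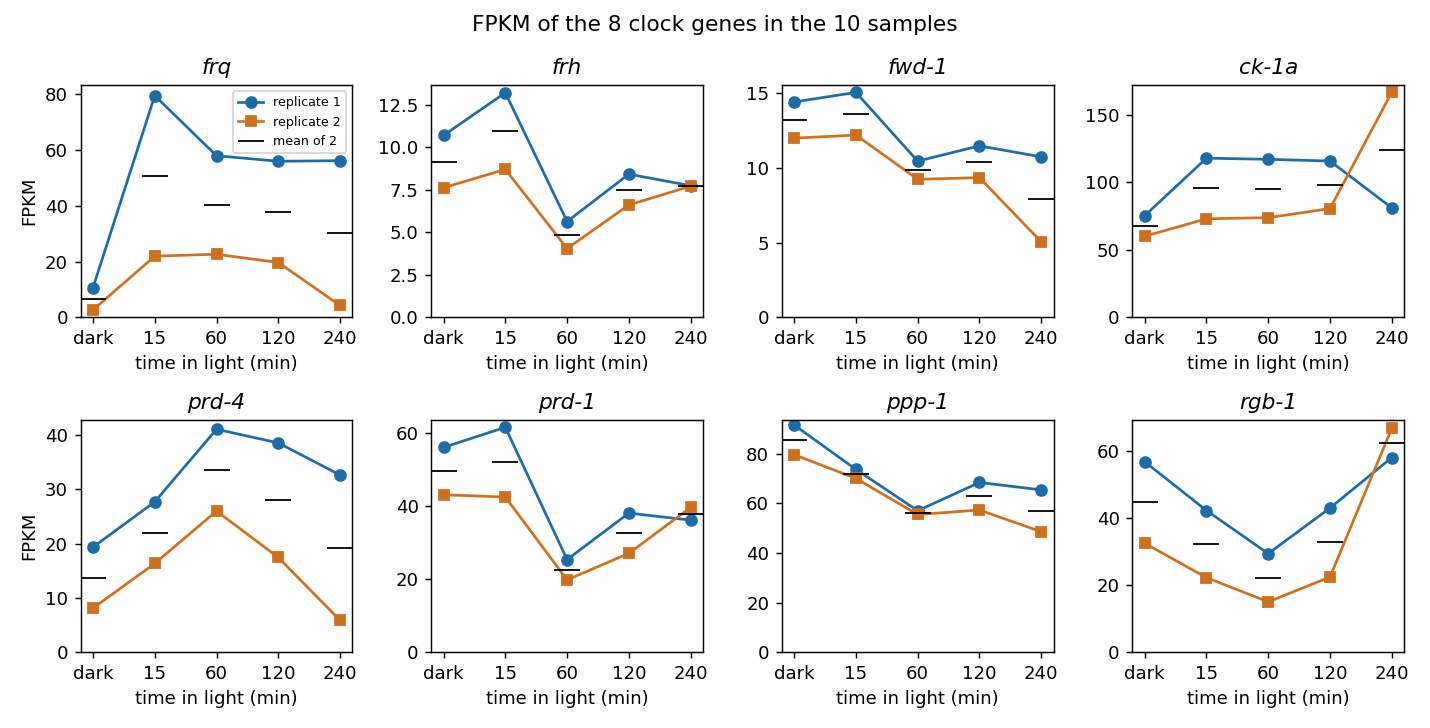
FPKM of the 8 clock genes (y axis, linear, from 0) by time in light (x axis, dark at left, categories not to scale in time), with replicate 1 as circles, replicate 2 as squares, and the mean of 2 as a black bar. The curves of both replicates have like shapes up to 120 min. *frq* is at 79.3 and 21.9 FPKM at 15 min against 10.62 and 2.71 FPKM in the dark. At 240 min the curves part, most for *frq*, *ck-1a*, and *prd-4*. There *prd-1* and *rgb-1*, like *ck-1a*, are higher in replicate 2, and *fwd-1* is 2.12 times as high in replicate 1.

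The 8 transcripts covered a wide range of levels, given here as FPKM and thus per transcript length. After 15 min of light the means were highest for *ck-1a* (95.4 FPKM) and *ppp-1* (71.9), then *prd-1* (51.9), *frq* (50.6), *rgb-1* (32.2), *prd-4* (22.0), *fwd-1* (13.6), and *frh* (10.9). The replicates then overlapped between *ck-1a* and *ppp-1*, between *fwd-1* and *frh*, and between each neighboring pair from *prd-1* to *prd-4*, so the order within these pairs is not set. *frq*, at 79.3 and 21.9 FPKM, also overlapped *ck-1a*, *ppp-1*, and *prd-4*, so its place among these is not set either. In the dark *ppp-1* (85.7) and *ck-1a* (67.7) were also highest, followed by *prd-1* (49.5), *rgb-1* (44.6), *prd-4* (13.7), *fwd-1* (13.2), *frh* (9.16), and *frq* (6.66), which had the lowest mean of the 8. In the dark the replicates overlapped between the neighbors *prd-1* and *rgb-1*, *prd-4* and *fwd-1*, and *frh* and *frq*, and there too the order is not set. *prd-4*, at 19.3 and 8.11 FPKM in the dark, overlapped *frh* and *frq* as well. Among all expressed genes *frq* ranked 1235 of 7688 at 15 min, against 4534 in the dark.

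*frq* had the largest estimated change of the 8 genes at 15, 60, and 120 min. It was at 79.3 and 21.9 FPKM (replicates 1 and 2) after 15 min of light, against 10.62 and 2.71 FPKM in the dark. After 60 min it was at 57.8 and 22.6 FPKM, and after 120 min at 55.8 and 19.6 FPKM. Every one of these 6 light samples was above both dark samples. In such bulk samples more cells with the transcript and more transcript per cell cannot be told apart. Replicate 1 was 3.62 times replicate 2 at 15 min and 3.92 times in the dark, so that the levels differed far more between replicates than the changes did. Within its own replicate, *frq* was 7.47 and 8.08 times the dark level at 15 min, 5.44 and 8.34 times at 60 min, and 5.26 and 7.25 times at 120 min. The mean at 15 min was 50.6 ± 40.6 FPKM, against 6.66 ± 5.59 FPKM in the dark (SD, n = 2 each). The limma log2 fold change was 2.71 at 15 min (SE 1.16, adjusted p = 0.412), 2.50 at 60 min (adjusted p = 0.457), and 2.38 at 120 min (adjusted p = 0.484). With the replicate block, limma gave the same estimates with an SE of 0.50 and adjusted p of 0.0315, 0.0382, and 0.0423. Among the 7688 expressed genes the change of *frq* ranked 41, 109, and 74 from the highest after 15, 60, and 120 min.

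At 240 min *frq* depended on the replicate. It was at 56.0 FPKM in replicate 1, where it had stayed at the level of 120 min, and at 4.28 FPKM in replicate 2, against 10.62 and 2.71 FPKM in the dark, so light and dark overlapped. These values were 5.28 and 1.58 times the dark level of the same replicate. In replicate 2 that was less than for *ck-1a* (2.77 times) and *rgb-1* (2.05 times). The limma log2 fold change was 1.40 (SE 1.16, adjusted p = 0.742, and 0.145 with the block). It was 3.12 without 240 min replicate 2 (adjusted p = 0.130) and −0.31 without 240 min replicate 1 (adjusted p = 0.893). Each of these values rests on 1 sample at 240 min, and its spread was taken from the other time points.

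The difference of *frq* between the replicates was large among all genes. On the log2(FPKM + 1) scale it was 1.81 at 15 min and 1.65 in the dark, where the median size over the expressed genes was 0.405 and 0.400. Between 98.1% and 99.4% of expressed genes had closer replicates than *frq* at the 5 time points. The replicate difference of *wc-1* was 1.65 at 15 min and 1.33 in the dark.

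**Figure D2:**
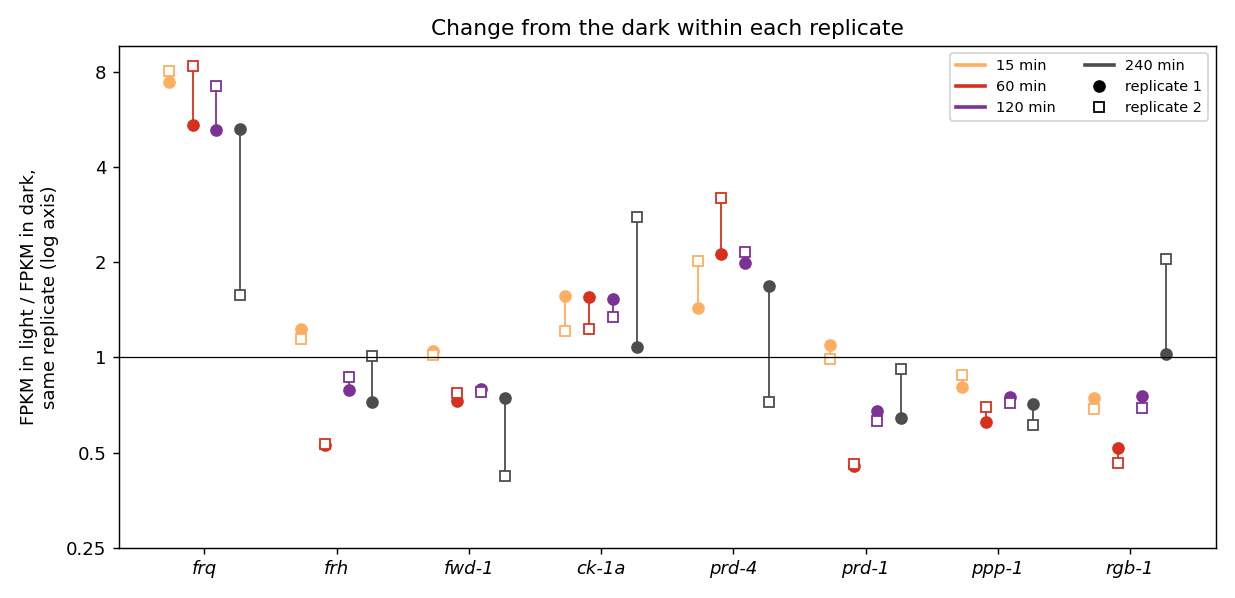
FPKM in light divided by FPKM in the dark of the same replicate (y axis, log scale) for each clock gene, with 1 color for each time in light, filled circles for replicate 1, and open squares for replicate 2. The line at 1 is the dark level, *frq* lies between 5.26 and 8.34 up to 120 min, and *frh* and *prd-1* lie lowest at 60 min with replicates that nearly coincide.

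*frh* encodes the FRQ-interacting RNA helicase, an essential protein that stabilizes FRQ and brings it to the WCC. Its level was modest and moved little at 15 min, with 13.2 and 8.70 FPKM in light, against 10.7 and 7.62 FPKM in the dark. At 60 min it was at 5.64 and 4.05 FPKM, below both dark samples. These were 0.527 and 0.531 times the dark level of the same replicate, so the replicates gave nearly the same ratio. At 120 min it was at 8.42 and 6.61 FPKM, and at 240 min at 7.74 and 7.71 FPKM. Both later pairs overlapped the dark samples. The limma log2 fold change at 60 min was −0.79 (SE 0.34, adjusted p = 0.411), and with the replicate block the adjusted p was 0.0511. At 15, 120, and 240 min it was 0.22, −0.25, and −0.20, with adjusted p of 0.886 or more without the block and 0.450 or more with it. Without both 240 min samples and with the block, limma called the 15 and 120 min changes (adjusted p = 0.0870 and 0.0663). That fit called 61.1% and 74.4% of all expressed genes at these times.

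The amount of *frq* transcript relative to *frh* transcript, per transcript length, was higher in light up to 120 min. The ratio of their FPKM was 6.004 and 2.52 at 15 min, 10.3 and 5.58 at 60 min, 6.63 and 2.97 at 120 min, and 7.24 and 0.555 at 240 min, against 0.992 and 0.356 in the dark. In both replicates the ratio was highest at 60 min, where *frq* was still high and *frh* was lowest. All 6 light samples up to 120 min were above both dark samples, and the ratio itself was not tested.

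*fwd-1* encodes the F-box protein that binds phosphorylated FRQ and directs it to ubiquitination. Its FPKM was 15.0 and 12.2 at 15 min, against 14.4 and 11.97 in the dark, which is no more than the spread between replicates. It was 10.4 and 9.22 at 60 min and 11.5 and 9.34 at 120 min, and at both times the light samples lay below the dark samples without overlap. At 240 min it was 10.7 and 5.05, again below both dark samples. The log2 fold changes at 60 and 120 min were −0.39 and −0.32. In the fits of all 10 samples limma did not call them with or without the block (adjusted p between 0.352 and 0.857). Without both 240 min samples and with the block, limma called both (adjusted p = 0.00723 and 0.0163). That fit called 78% and 74.4% of all expressed genes at these times. At 240 min the change was −0.75 (SE 0.38, adjusted p = 0.503), and limma called it with the replicate block (adjusted p = 0.105). Within its own replicate *fwd-1* was then 0.745 and 0.422 times the dark level. The change was −0.27 without 240 min replicate 2 and −1.22 without 240 min replicate 1.

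*ck-1a* encodes casein kinase I, which phosphorylates both FRQ and the WCC, and it had the highest mean level of the 8 transcripts, per transcript length, at all 4 times in light. It was at 118 and 73.0 FPKM at 15 min, 117 and 73.8 FPKM at 60 min, and 116 and 80.5 FPKM at 120 min, against 75.3 and 60.1 FPKM in the dark. Within its replicate it was between 1.21 and 1.56 times the dark level in these 6 samples. Light and dark overlapped at 15 and 60 min and not at 120 min. At 240 min the replicates changed places, with 81.1 FPKM in replicate 1 and 167 FPKM in replicate 2, both above the dark samples. The limma log2 fold changes were 0.46, 0.46, 0.51, and 0.78 at 15, 60, 120, and 240 min (SE 0.47), with adjusted p between 0.596 and 0.815, and between 0.322 and 0.572 with the block. Without both 240 min samples and with the block, limma called *ck-1a* at 15, 60, and 120 min (adjusted p = 0.00966, 0.00940, and 0.00584), in a fit that called 61.1%, 78%, and 74.4% of all expressed genes.

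*prd-4* encodes the checkpoint kinase 2 of *Neurospora*, which phosphorylates FRQ after DNA damage and resets the clock. It was higher in light than in the dark at 60 min, at 41.0 and 26.0 FPKM, against 19.3 and 8.11 FPKM in the dark, with no overlap. At 15 min it was at 27.7 and 16.3 FPKM, and at 120 min at 38.5 and 17.4 FPKM. Both pairs overlapped the dark samples, since the dark sample of replicate 1 was above the light samples of replicate 2. Within its own replicate *prd-4* was 1.43 and 2.02 times the dark level at 15 min, 2.12 and 3.20 times at 60 min, and 1.99 and 2.15 times at 120 min. Its level was highest at 60 min in both replicates. The log2 fold change at 60 min was 1.31 (SE 0.77, adjusted p = 0.583) and at 120 min 0.99 (adjusted p = 0.718). With the replicate block limma called both (SE 0.40, adjusted p = 0.101 and 0.185) and did not call the 0.71 at 15 min (adjusted p = 0.320). Without both 240 min samples and with the block, the 15 min change was called too (adjusted p = 0.00526), where 61.1% of all genes were called.

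At 240 min the replicates of *prd-4* parted too. It was at 32.6 FPKM in replicate 1, above both dark samples, and at 5.87 FPKM in replicate 2, below both. The log2 fold change was 0.16 (adjusted p = 0.980, and 0.848 with the block), and it was 1.30 without 240 min replicate 2 and −0.98 without 240 min replicate 1.

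*prd-1* encodes an RNA helicase, and mutants of the gene have a long period. At 15 min it was at 61.4 and 42.4 FPKM, against 56.0 and 43.0 FPKM in the dark, which was no more than the difference between the dark replicates. At 60 min it was at 25.3 and 19.8 FPKM, below both dark samples and below all other samples. This was 0.452 and 0.460 times the dark level of the same replicate. It was at 38.0 and 27.0 FPKM at 120 min and at 36.1 and 39.6 FPKM at 240 min, still below both dark samples. The log2 fold change at 60 min was −1.10 (SE 0.35, adjusted p = 0.255), the lowest adjusted p of any clock gene against the dark in the fit with no block. With the block it was 0.0388. At 120 min the change was −0.60 (adjusted p = 0.588, and 0.158 with the block), and at 240 min it was −0.37 and was not called (adjusted p = 0.793, and 0.357 with the block). At 15 min the change was 0.06, and after quantile normalization it was −0.03, so no direction can be given.

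Protein phosphatase 1 removes phosphate from FRQ and stabilizes it, and its catalytic subunit is encoded by *ppp-1*. The gene had the closest replicates of the 8 at 15 and 60 min. It was at 73.8 and 70.1 FPKM at 15 min, 57.1 and 55.6 FPKM at 60 min, 68.5 and 57.4 FPKM at 120 min, and 65.5 and 48.6 FPKM at 240 min, against 91.7 and 79.7 FPKM in the dark. All 8 light samples were below both dark samples. The log2 fold changes were −0.25, −0.59, −0.44, and −0.59 at 15, 60, 120, and 240 min (SE 0.32, adjusted p between 0.530 and 0.872). With the replicate block limma called the 60 min change (adjusted p = 0.125) and the 240 min change (adjusted p = 0.126). When both 240 min samples were left out, limma with no block called the 60 and 120 min changes (adjusted p = 0.0785 and 0.162). That fit called 34.8% and 32.2% of all expressed genes. With the block as well, limma called 15, 60, and 120 min (adjusted p = 0.0455, 0.00122, and 0.00456), in a fit that called 61.1%, 78%, and 74.4% of all.

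*rgb-1* encodes a regulatory subunit of protein phosphatase 2A, which acts on FRQ and on the WCC. At 15 min it was at 42.2 and 22.2 FPKM, at 60 min at 29.4 and 15.0 FPKM, and at 120 min at 43.0 and 22.4 FPKM, against 56.8 and 32.5 FPKM in the dark. Replicate 1 was between 1.90 and 1.96 times replicate 2 at these times in light and 1.75 times in the dark, so that only the 60 min samples were clear of the dark samples. Within its own replicate *rgb-1* was between 0.462 and 0.757 times the dark level in these 6 samples and lowest at 60 min in both. The log2 fold change at 60 min was −0.995 (SE 0.51, adjusted p = 0.515), and limma called it with the block (adjusted p = 0.112). At 15 and 120 min the changes were −0.47 and −0.45 and were not called by either fit of all 10 samples. Without both 240 min samples and with the block, limma called both (adjusted p = 0.00223 and 0.00268). That fit called 61.1% and 74.4% of all expressed genes at these times. At 240 min it was at 58.0 and 66.7 FPKM, the highest of any time point in both replicates. The log2 fold change against the dark was then 0.52 (adjusted p = 0.801, and 0.358 with the block).

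**Figure D3:**
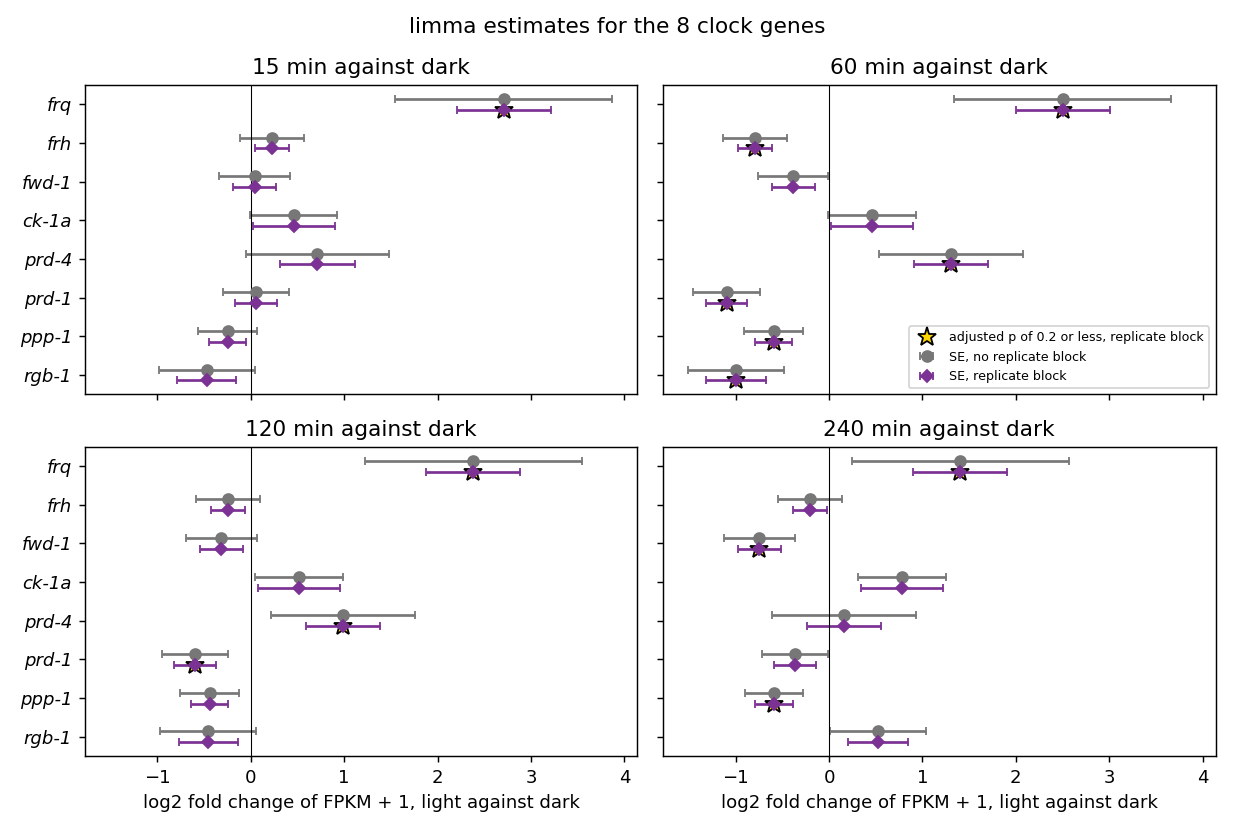
limma log2 fold change of FPKM + 1 (x axis, light minus dark) for the 8 clock genes at each time in light, with the SE of the fit without a replicate block (gray circles) and with it (purple diamonds), and stars where the adjusted p with the block was 0.2 or less. At 60 min 6 genes carry a star, *frq* and *prd-4* at 2.50 and 1.31 and 4 genes between −1.10 and −0.59.

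The 60 min samples held the most changes among the 8 genes, as they did among all expressed genes. With the block, limma called *frq* and *prd-4* higher there, where 14.4% of all expressed genes were called higher, and *frh*, *prd-1*, *ppp-1*, and *rgb-1* lower, where 22.1% were called lower. Light and dark samples did not overlap for 7 of the 8 genes at 60 min, 2 higher (25.4% of all expressed genes) and 5 lower (31.7%). There was no overlap for 1 higher (16.3%) and 1 lower gene (21.3%) at 15 min, 2 higher (22.7%) and 3 lower (30.5%) at 120 min, and 2 higher (7.48%) and 3 lower (17.5%) at 240 min. At 15, 60, 120, and 240 min the median log2 fold change of the 8 genes was 0.14, −0.49, −0.28, and −0.02, beside −0.05, −0.09, −0.07, and −0.14 for all expressed genes. Scaling the samples to the same median moved the median of all genes upward by 0.18, 0.10, and 0.12 after 60, 120, and 240 min, and quantile normalization moved it by 0.12 at 240 min. No change of the 8 genes that was called with the block had the opposite sign under either scaling. The counts of genes without overlap were not repeated under these scalings. Summed over all genes, FPKM was 944127 and 1009370 at 60 min, against 570422 and 729103 in the dark.

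The light time points were also compared with each other, 6 pairs for each of the 8 genes and 48 comparisons in all. Without the block limma called 0 of 48, with a lowest adjusted p of 0.316, and 3 had an unadjusted p under 0.05. Over all expressed genes 0.572% were called for 60 min against 15 min, 0.767% for 120 min against 15 min, 0.143% for 120 min against 60 min, and 1.22%, 1.93%, and 0.338% for 240 min against 15, 60, and 120 min. With the block limma called 13 of 48, in 6 of the 8 genes, where 22.1%, 17.5%, 10.6%, 23%, 33.9%, and 24.3% of all genes were called in the same 6 pairs. *prd-1* was lower at 60 min than at 15 min by a log2 difference of −1.16 (SE 0.35, adjusted p = 0.316, and 0.0491 with the block). *frh* was lower at 60 min than at 15 min by −1.02 (adjusted p = 0.354, and 0.0419 with the block), and higher at 120 min than at 60 min by 0.55 (adjusted p = 0.668, and 0.139 with the block). *rgb-1* was higher at 240 min than at 60 min by 1.52 (adjusted p = 0.360, and 0.0564 with the block). It was at 58.0 and 66.7 FPKM at 240 min, against 29.4 and 15.0 FPKM at 60 min, with the larger rise in replicate 2. For *frq* the call was at 240 min against 15 min, a difference of −1.30 (adjusted p = 0.808, and 0.187 with the block), which rests on the 4.28 FPKM of the 240 min sample of replicate 2. *prd-4* was lower at 240 min than at 60 min by −1.15 (adjusted p = 0.706, and 0.154 with the block), a call that also includes the low value of that sample. *frq* was not called between 15, 60, and 120 min in the fits of all 10 samples. With the block and without both 240 min samples it was called lower at 120 min than at 15 min (adjusted p = 0.0746), where 63.7% of all genes were called.

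The arm of the clock that senses light gave the values beside which *frq* can be read. *wc-1* was at 42.2 and 12.8 FPKM at 15 min, against 4.88 and 1.34 FPKM in the dark, which is 8.64 and 9.55 times the dark level of the same replicate. At 120 min it was at 14.4 and 4.22 FPKM, or 34.1% and 33.0% of its 15 min level in the same replicate. *frq* at 120 min was at 70.4% and 89.7% of its 15 min level. *vvd*, which encodes the blue-light photoreceptor that dampens the WCC, was at 537 and 293 FPKM at 15 min, against 4.52 and 2.18 FPKM in the dark, and was at 16.9% and 15.4% of that at 120 min. *csp-1*, a light-induced repressor under the WCC, was at 390 and 330 FPKM at 15 min, against 46.4 and 35.4 FPKM in the dark, and was at 11.5% and 10.2% of that at 120 min. Of *frq*, *wc-1*, *vvd*, and *csp-1*, *frq* thus kept the highest share of its 15 min level at 60 and 120 min in both replicates. The difference between these shares was not tested.

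**Figure D4:**
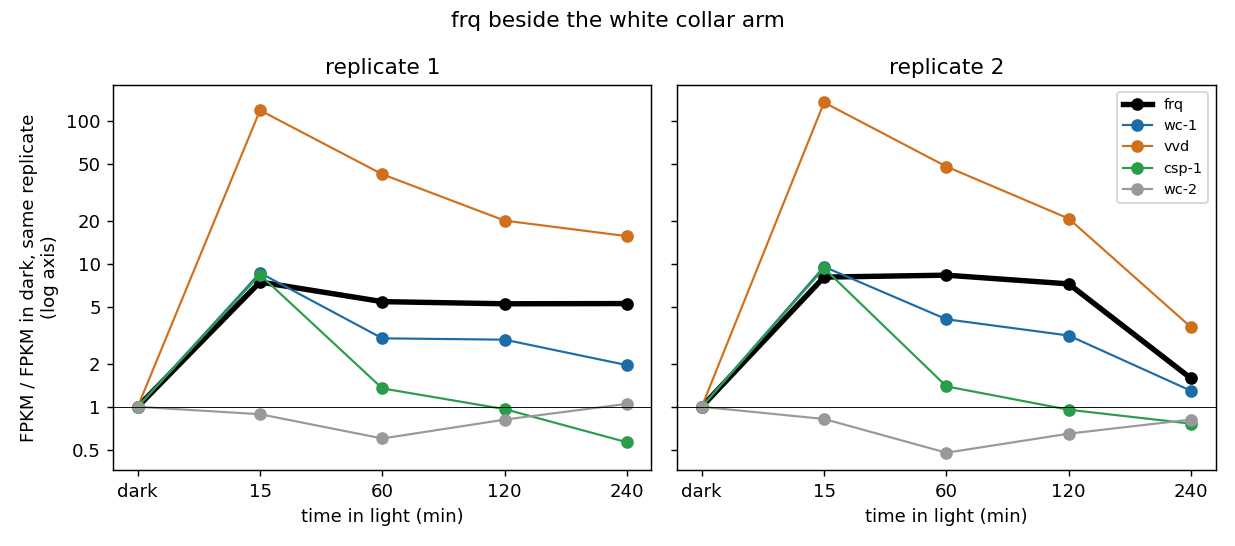
FPKM relative to the dark level of its replicate (y axis, log scale) by time in light (x axis, categories) for *frq* (thick line) and the White Collar genes, with replicate 1 at left and replicate 2 at right. *vvd*, *wc-1*, and *csp-1* peak at 15 min and decline, whereas *frq* is at 5.26 and 7.25 times the dark level at 120 min and *wc-2* is below it at 60 min.

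*wc-2*, which encodes the partner of WC-1, did not follow it. It was at 10.9 and 10.5 FPKM at 15 min, 7.38 and 6.10 FPKM at 60 min, 10.0 and 8.30 FPKM at 120 min, and 12.9 and 10.4 FPKM at 240 min, against 12.3 and 12.8 FPKM in the dark. The 60 min change of −0.81 on the log2 scale was called with the block (adjusted p = 0.0392, and 0.305 without it), and so was the −0.42 at 120 min (adjusted p = 0.176, and 0.666 without the block). The level of *wc-2* at 60 min was 0.600 and 0.477 times the dark level of the same replicate, near the 0.527 and 0.531 of *frh*.

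Of a list of 18 other genes of the White Collar arm, the kinases, phosphatase 2A, the SCF ubiquitin ligase, and the COP9 signalosome, all 18 were expressed. Without the block limma called *vvd* and *csp-1* at 15 min, *vvd* at 60 and 120 min (1.78%, 6.23%, and 4.96% of all genes), and 0 genes at 240 min (1.38%), where 1 (*vvd*) had an unadjusted p under 0.05. The log2 fold changes of *vvd* were 6.57, 5.09, 3.96, and 2.59 at the 4 times (adjusted p = 0.0368, 0.0692, 0.128, and 0.282), and that of *csp-1* at 15 min was 3.11 (adjusted p = 0.0145). *vvd* was 119 and 135 times the dark level of its own replicate at 15 min, 42.4 and 48.0 times at 60 min, and 20.1 and 20.7 times at 120 min. The calls changed when a library was left out, which leaves 1 sample in that group with its spread taken from the other groups. Without 1 dark sample or 1 of the 60 min samples 0 genes of the list were called at 60 min, without any 1 sample other than those of 240 min 0 were called at 120 min, and without a dark sample 1 (replicate 1) or 0 (replicate 2) were called at 15 min. In those fits at most 0.286% of all genes were called at 60 min, 0.715% at 120 min, and 0.104% at 15 min. With 1 or the other 240 min sample left out, 5, 8, and 6 were called at 15, 60, and 120 min (16.9%, 36.2%, and 33.3% of all without replicate 1, and 15.6%, 34.5%, and 31.8% without replicate 2). With the block there were 4, 8, 8, and 11 calls at the 4 times (15.2%, 36.5%, 31.2%, and 20.1% of all). The calls of *wc-1* are among them, with a log2 fold change of 2.72 at 15 min (adjusted p = 0.00614, and 0.264 without the block), 1.44 at 60 min, and 1.27 at 120 min. At 240 min the calls with the block were *wc-1* and *vvd* higher (0.53 and 2.59, adjusted p = 0.168 and 0.0450) and 9 genes lower. Among the 9 were *csp-1* (−0.59, adjusted p = 0.134), *camk-1* (−0.78, adjusted p = 0.0701), and *ckb-2* (−0.46, adjusted p = 0.187). At 240 min *wc-1* was at 9.56 and 1.73 FPKM, against 4.88 and 1.34 FPKM in the dark, so light and dark overlapped. The p of all these calls use the spread of all time points, not of 240 min alone.

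Of the 7 kinase subunits of the list, 3 were called lower with the block at 60 min (22.1% of all genes) and 0 were called higher (14.4%). Without both 240 min samples and with the block, *pkac-1* and *mcb* were called higher there (adjusted p = 0.00113 and 0.00335), in the fit that called 78% of all genes. *camk-1*, which encodes a calcium/calmodulin-dependent kinase that phosphorylates FRQ in vitro, was at 59.1 and 38.7 FPKM at 15 min, 34.2 and 20.9 FPKM at 60 min, and 34.0 and 20.8 FPKM at 120 min, against 68.0 and 45.0 FPKM in the dark. Its log2 fold change was −1.02 at 60 min and −1.03 at 120 min, and both were called with the block (adjusted p = 0.0365 and 0.0356, against 0.391 and 0.386 without it). The regulatory subunits of casein kinase II, *ckb-1* and *ckb-2*, were called lower with the block at 60 min (−0.65 and −0.62) and 120 min (−0.64 and −0.82). Its catalytic subunit, *cka*, changed by −0.05, −0.18, and −0.42 at 15, 60, and 120 min. In the fits of all 10 samples *cka* was called, with the block, at 240 min only (−0.66, adjusted p = 0.177). It was then at 63.2 and 26.8 FPKM, against 72.8 and 59.3 FPKM in the dark, so light and dark overlapped. Without both 240 min samples and with the block it was called lower at 60 and 120 min (adjusted p = 0.166 and 0.0106). That fit called 78% and 74.4% of all genes at these times. *mcb*, the regulatory subunit of protein kinase A, was called higher with the block at 120 min (0.65, adjusted p = 0.190). The catalytic subunits *pkac-1* and *pkac-2* were not called up to 120 min in the fits of all 10 samples. *pkac-1* was at 37.6 and 33.6 FPKM at 15 min, 45.4 and 39.0 FPKM at 60 min, and 56.0 and 47.6 FPKM at 120 min, against 30.6 and 27.4 FPKM in the dark, with no overlap. It was called higher without both 240 min samples and with no block at 60 and 120 min (0.52 and 0.81, adjusted p = 0.129 and 0.0400), where 34.8% and 32.2% of all genes were called. *pkac-2* was called lower with the block at 240 min (−0.70, adjusted p = 0.117).

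The signalosome, which keeps the SCF ligase that holds FWD-1 in working order, was represented by 4 genes. *csn-1* was at 7.73 and 5.38 FPKM at 15 min and 6.18 and 3.96 FPKM at 60 min, against 11.3 and 11.2 FPKM in the dark, and all its 8 light samples were below both dark samples. It was called lower with the block at all 4 times (−0.72, −1.04, −0.56, and −0.78, adjusted p = 0.0898, 0.0375, 0.154, and 0.0743). *csn-3* was called lower with the block at 60 and 240 min and *csn-2* at 240 min, and *csn-5* was not called in the fits of all 10 samples. Without both 240 min samples and with the block *csn-5* was called lower at 15 and 60 min (−0.28 and −0.35, adjusted p = 0.129 and 0.0702), in the fit that called 61.1% and 78% of all genes at these times. *scon-3*, the SKP1 homolog that joins F-box proteins to the ligase, was at 643 and 573 FPKM at 60 min, against 409 and 464 FPKM in the dark (log2 fold change 0.48), and its light samples at 15, 60, and 120 min were above both dark samples. It was not called in the fits of all 10 samples and was called higher without both 240 min samples, with no block, at 60 and 120 min (adjusted p = 0.135 and 0.0965). *pph-1*, the catalytic subunit of phosphatase 2A, was called lower with the block at 240 min (−0.65, adjusted p = 0.0956). It was within 0.22 of the dark on the log2 scale up to 120 min, and its light samples at 15 and 60 min were above both dark samples. Without both 240 min samples and with the block it was called higher at 15 min (adjusted p = 0.106), where 61.1% of all genes were called. NCU00488, a further gene of that phosphatase list, was not called in the fits of all 10 samples, and was called lower at 60 min with the block and without both 240 min samples (−0.30, adjusted p = 0.0439).

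The 5 genes whose levels were most like *frq* over the 10 samples, by Pearson r of log2(FPKM + 1), were NCU04615 (r = 0.970), NCU00401 (0.967), NCU00691 (0.966), NCU02355 (0.956), and NCU01584 (0.953). Over the 8 samples without 240 min their r with *frq* was between 0.940 and 0.979. The samples share 2 replicate series that differ in depth and RNA isolation, and *frq* differed strongly between them, so r here counts the replicate difference as well as light. NCU04615 is annotated by the study as an osmolarity two-component protein, and the other 4 carry no name. NCU04615 was at 14.2 and 8.50 FPKM at 15 min, against 5.89 and 3.69 FPKM in the dark. NCU02355 was at 7.82 and 4.59 FPKM at 15 min, against 4.25 and 1.74 FPKM in the dark, and it is the neighbor of *wc-1* in the RefSeq gene order of assembly NC12.

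Among all expressed genes, the gene most like *frh* over the 10 samples was *prd-1* (r = 0.967). Over the 8 samples without 240 min the r of *prd-1* was 0.969, below the 0.977 of NCU06704. As for *frq*, r here counts the replicate difference as well as light. *frh* and *prd-1* each encode an RNA helicase. *frh* ranked 4 among the genes most like *prd-1*. The FPKM of *frh* was between 0.177 and 0.245 times that of *prd-1* in every sample, while *frh* itself varied 3.26-fold and *prd-1* 3.11-fold over the 10 samples. This likeness was noted after the values were seen, and no test was made of it.

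**Figure D5:**
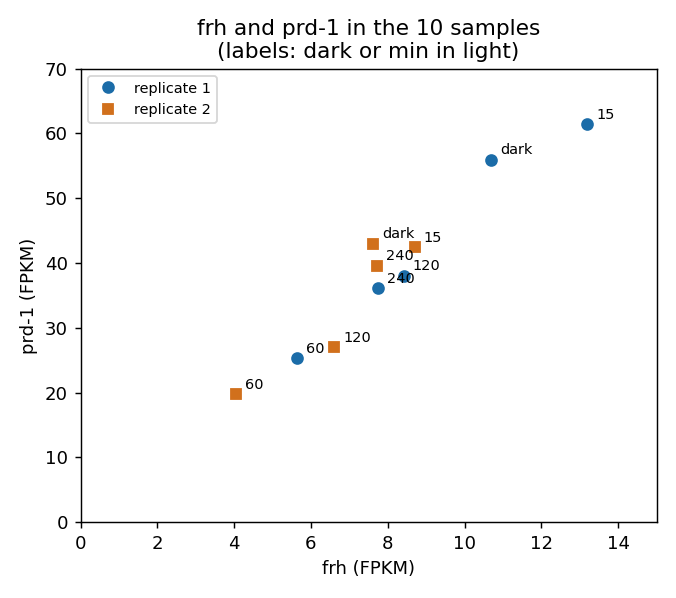
FPKM of *frh* (x axis) and *prd-1* (y axis) in the 10 samples, both axes linear from 0, with replicate 1 as circles and replicate 2 as squares and each point labelled with its time in light. The 60 min samples lie lowest for both genes (5.64 and 4.05 FPKM for *frh*, 25.3 and 19.8 FPKM for *prd-1*), and the points lie near a line through the origin.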

How the data were processed

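The deposited values are FPKM, 1 for each of 9728 genes in each of 10 samples. Per the labels and the study's methods, the authors processed reads with CASAVA 1.8.2, aligned them with TopHat2 2.0.5 to *N. crassa* assembly 10, and computed FPKM with Cuffdiff of the Cufflinks suite, with correction for fragment bias and for reads that map to several places, each replicate's time course apart. Read counts and depth are not held by these values, so no counting interval is given, and precision is that of 2 replicates. No filter was applied by the authors to the gene list, and between 721 and 915 genes are listed at 0 in a sample.

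Groups and replicate numbers came from the sample titles. The main test was a linear model of log2(FPKM + 1) with limma 3.58.1 (R 4.3.3) for the 7688 genes with mean FPKM above 1 at a time point. It had 1 mean for each time point, all 10 samples, a variance trend in eBayes, and Benjamini-Hochberg adjustment over the 4 comparisons with the dark, or over the 6 among light time points, with a threshold of 0.2. A fold change on this scale understates that of low genes. The fits were tested on simulated data. Other values were computed with Python 3.11.15, numpy 2.4.6, pandas 2.3.3, and matplotlib 3.10.9.

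The replicate number marks the RNA isolation method, so it pairs the samples. Deviations from the time point means correlated between samples of the same number, with r between 0.760 and 0.841 for the dark, 15, 60, and 120 min and between 0.334 and 0.412 with 240 min (7688 genes). Results with the number as a block are given beside those without it. The clock genes, the list of 18 and the marker lists were chosen with earlier results of these data known. All 8 clock genes were named, and of the list *wc-1*, *wc-2*, *vvd*, *csp-1*, *camk-1*, and those past the threshold, with the 5 genes most like *frq*. *csn-5*, *pkac-1*, *scon-3*, NCU00488, and the likeness of *frh* and *prd-1* were added after the values were seen. The alternatives were the block, pseudocounts of 0.1 and 0.5, no filter or a mean FPKM above 2, quantile normalization, median scaling, no variance trend, adjustment within each comparison, omission of both 240 min samples, and omission of each sample. Sequences and genome coordinates were not used here.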

Additional observations from a re-analysis of the deposited data

Results flagged for a closer look

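For 3 of the clock genes both replicates lay on one side of their own dark sample at one time in light and on the other side at another time. In each case the difference between the times was tested with limma. In the fits of all 10 samples it was not called without the block, and was called with it only where stated.

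*frh* was above the dark in both replicates at 15 min and below it at 60 and 120 min. The log2 differences were −1.02 for 60 min against 15 min (adjusted p = 0.354, and 0.0419 with the replicate block) and −0.47 for 120 min against 15 min (adjusted p = 0.735, and 0.186 with the block).

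*fwd-1* was above the dark at 15 min by less than the difference between the dark replicates and below it at the later times. The log2 differences from 15 min were −0.43, −0.36, and −0.79 after 60, 120, and 240 min. The last of these was called with the block (adjusted p = 0.112, and 0.546 without it). That call includes the 5.05 FPKM of the 240 min sample of replicate 2, against 10.7 FPKM in replicate 1.

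*rgb-1* was below the dark in both replicates at 15, 60, and 120 min and above it at 240 min, in replicate 1 by 1.02 times and in replicate 2 by 2.05 times. The log2 differences of 240 min were 0.996 from 15 min, 1.52 from 60 min, and 0.98 from 120 min, with adjusted p of 0.131, 0.0564, and 0.135 with the block and of 0.580, 0.360, and 0.588 without it.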

How the results depend on the processing

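Without a block limma called 0 of 8 clock genes at all 4 times. With the replicate block the counts at 15, 60, 120, and 240 min were 1, 6, 3, and 3. Without both 240 min samples they were 1, 5, and 2, and with the block as well, an alternative chosen after seeing the data, 6, 8, and 8 (61.1%, 78%, and 74.4% of all genes). Quantile normalization gave 2 at 60 min, and adjustment within each comparison 1. Among light times the counts of genes were 6 (block), 2 (without 240 min), 7 (both), and 1 (adjusted within each comparison). The estimates for *frq* stayed at 2.71, 2.50, 2.38, and 1.40 with the block and, up to 120 min, without the 240 min samples, and all of these then passed the threshold (adjusted p between 1.22e-05 and 0.147). For the list of 18, called for 2, 1, 1, and 0 genes, the counts were 4, 8, 8, and 11 with the block, 5, 8, and 6 without 240 min, and 14, 16, and 12 with both (of all genes 61.1%, 78%, and 74.4%). Quantile normalization gave 3, 2, and 1 at 60, 120, and 240 min, median scaling 2 at 60 min and 1 at 240 min, adjustment within each comparison 3 at 60 min, and no filter 2 at 120 min.

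Leaving out each sample in turn gave between 0 and 1, 0 and 5, 0 and 2, and 0 and 3 clock genes at the 4 times, and between 0 and 7 among light times (7 without 240 min replicate 1 and 2 without 240 min replicate 2). It gave between 0 and 5, 0 and 8, 0 and 6, and 0 and 8 genes of the list. *frq* ranged between 1.803 and 3.61, 1.68 and 3.33, 1.56 and 3.21, and −0.31 and 3.12, so its sign reversed at 240 min. Signs reversed, at values none of which was called, for *frh* at 15 min (between −0.050 and 0.50) and 240 min (−0.42 and 0.018), *fwd-1* at 15 min (−0.10 and 0.18), *prd-4* at 240 min (−0.98 and 1.30), *prd-1* at 15 min (−0.21 and 0.32, and −0.028 after quantile normalization), and *rgb-1* at 120 min (−0.91 and 0.00012). The replicate block changed no direction, since it leaves the estimates as they are. The files hold no counts, so the effect of depth was not measured.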
